A study of Mus musculus with 6 samples.

Results

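The genes of the proteasome were examined in N2a cells, a mouse neuroblastoma line, after reduction of nucleophosmin 1 (NPM1). Members were chosen by gene symbol, as every entry whose name starts with Psma to Psmg followed by a digit, leaving out entries marked as pseudogenes, and adding *Adrm1* and *Pomp*. This gave 53 of 26656 genes listed. Cells labelled as wild type were transfected with the plasmid pLKO.1-shNpm1 (NPM1 KD) or with the non-targeting plasmid pLKO.1-shCTR (CTR), and RNA was taken after 72 h, with 3 libraries in each group. Selection with 9.3 µg/ml puromycin from 24 h onwards is described for the knockdown experiments. All libraries come from 1 cell line and all knockdown libraries from 1 shRNA. The design text gives 3 biological replicates per condition whereas the treatment protocol gives 2, so that part of the spread between libraries may be technical.

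The proteasome is the protease that degrades ubiquitin-tagged proteins in the nucleus and cytosol. Its barrel-shaped core is built from outer rings of alpha subunits (*Psma* genes) and inner rings of beta subunits (*Psmb* genes), of which *Psmb5*, *Psmb6* and *Psmb7* carry the proteolytic sites. A regulatory particle caps the core, with a ring of ATPases that unfolds substrates (*Psmc* genes). Its non-ATPase subunits form the lid, bind ubiquitin or remove it (most *Psmd* genes and *Adrm1*). Alternative caps and an inhibitor are encoded by *Psme* genes and *Psmf1*, and dedicated chaperones (*Psmg* genes and *Pomp*) assemble the core. The subunits are present in fixed proportions in the complex, and their genes are known to be controlled together by the transcription factor NFE2L1 when proteasome activity is limiting.

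Expression is given as the deposited regularized log (rlog) value, which is on the log2 scale, corrected for library size and shrunk for genes with few reads. Every rlog value of 1 or more in size was deposited as a whole number, so a difference below 1 can remain hidden, and a small one can appear as 1 when it crosses a rounding limit. Total reads per library are unknown. Single-read genes gave relative depths between 0.784 and 1.30 for the 6 libraries, and which depth belongs to which library was not determined. A gene entered the test if its rlog values averaged log2 of 10 or more, which 5752 genes did. The fit drew its standard errors from a trend over all these genes, so that they do not reflect how far the libraries of a single gene differed, and p-values follow from the difference and this trend. The target of the knockdown, *Npm1* (ENSMUSG00000057113), stood at 10 throughout CTR and at 8 throughout NPM1 KD (difference −2 with a standard error of 0.33, 3 libraries per group, limma adjusted p = 3.23e-06). Of 16 neuroblastoma and neuronal markers 10 were expressed highly enough to be tested, among them *Hand2*, while *Nefl* and *Nefm* were at 0 in all libraries. None of 12 markers of fibroblasts, astrocytes and leukocytes reached that level, and 6 of them, including *Gfap*, *Ptprc* and *Col1a2*, were at 0 throughout. The rlog values of the 10 neuronal markers added up to 66 to 68 in CTR and 59 to 62 in NPM1 KD, with *Chga* and *Chgb* past the threshold in the lower direction. The part of this difference in the proteasome values was not tested, and fewer cells of one kind cannot be told apart from less RNA per cell.

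Proteasome genes leaned towards higher values upon NPM1 KD, without any single gene passing the threshold. Of the 53 members, 49 were expressed highly enough to be tested. Between the groups, 24 of these had a higher mean rlog value in NPM1 KD, 0 had a lower one and 25 had the same mean. The 4 members left out were *Psma8* and *Psmb11*, at 0 throughout, and *Psmb9* and *Psmc3ip*, both low and both with a slightly lower mean in NPM1 KD (2.67 against 3 and 0.585 against 0.641). Over all genes tested, 24.6% had a higher mean, 27.4% a lower mean and 48.0% the same mean. The members are more abundant than most genes, with a median of the authors' mean normalized counts of 71.7 against 28.4. Among the 1819 genes with an authors' mean of at least 50 the shares were 26.0% higher, 24.1% lower and 49.9% equal, and among the 36 members at this level 20 were higher and 0 lower. The median difference was 0 for the members and for all genes, while the mean difference was 0.26 for the members and −0.02 for all genes. These counts describe the list, whose genes were not drawn independently.

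**Figure D1:**
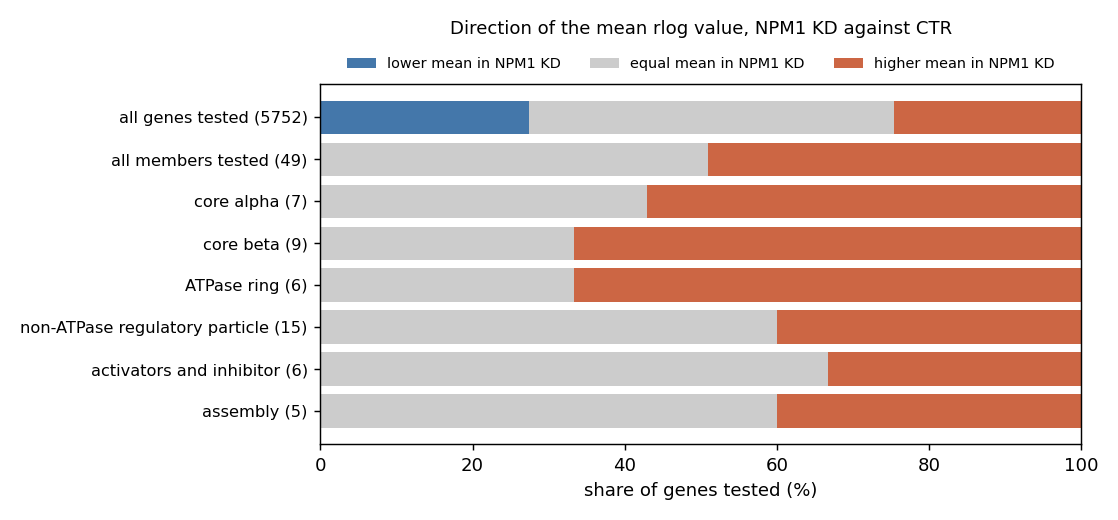
Share of genes tested (x axis, %) whose mean rlog value was lower (blue), equal (grey) or higher (orange) in the 3 NPM1 KD libraries than in the 3 CTR libraries, for all genes and for the proteasome classes (number of genes in brackets). Blue is present in the bar of all genes (27.4%) and missing from the bar of the 49 members and of each class.

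At an adjusted p below 0.05 (limma with a lower limit on the variance, Benjamini-Hochberg over 5752 genes), 0 of 49 members were called in either direction, against 4 higher (0.0695%) and 24 lower (0.417%) of all genes. At an unadjusted p below 0.05, 5 members were higher (*Psmb6*, *Psmc2*, *Psmd12*, *Psme3* and *Psmg3*) and 0 lower, against 6.07% and 8.07% of all genes. Without the limit on the variance, limma called 3 of 49 members higher (*Psmb6*, *Psmc2* and *Psmd12*, adjusted p = 3.58e-11). Of all 5752 genes, that fit called 123 higher and 178 lower. Without the trend, limma called the same 3 members (adjusted p = 0.0304), against 132 higher and 218 lower of all genes. The other alternative fits called 0 members. Rounding leaves these 3 members with a single value per group, so neither p-value measures a spread between libraries. In the fit with the limit a step of 1 did not suffice for a call. Of 296 genes with a difference of exactly 1 and no overlap between the groups, 0 were called (lowest adjusted p 0.0791 from limma), and the smallest difference of a called gene was 1.33, which no member reached.

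The 49 members averaged 5.94, 6.06 and 6.16 in the 3 CTR libraries and 6.39, 6.24 and 6.31 in the 3 NPM1 KD libraries on the rlog scale. The lowest NPM1 KD average was thus above the highest CTR average. The same averages over all 5752 genes were 5.31 in each CTR library and 5.27 to 5.30 in the NPM1 KD libraries, slightly lower in NPM1 KD. Averages over so many genes, corrected for library size, vary little between libraries. The gap between the averages of the 49 members cannot be judged against them.

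**Figure D2:**
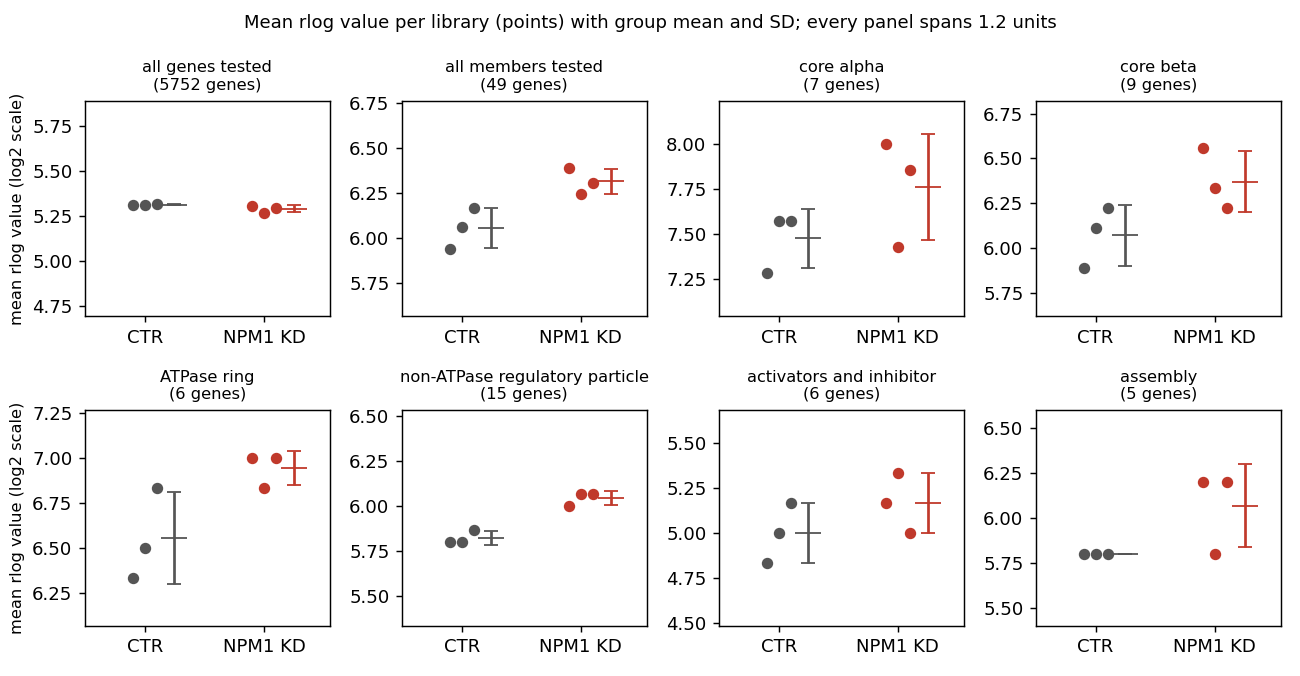
Mean rlog value (y axis, log2 scale) of the genes of each class in every library, CTR in grey and NPM1 KD in red, with the group mean and SD beside the points and an equal span in all panels. The NPM1 KD points lie above the CTR points for the 49 members together and for the non-ATPase class (*Psmd* genes and *Adrm1*). They lie slightly below the CTR points for all genes, and overlap or touch them in the other classes.

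In 3 members all NPM1 KD libraries stood above all CTR libraries, which is 6.12% of the members tested against 2.19% of all genes. In 0 members they stood below, against 3.41% of all genes. Among genes with an authors' mean of at least 50 the shares were 3.08% above and 4.01% below. *Psmb6* (ENSMUSG00000018286) encodes the catalytic beta subunit with caspase-like activity. It had a value of 7 in each CTR library and of 8 in each NPM1 KD library (difference 1 with a standard error of 0.35, 3 libraries per group, limma adjusted p = 0.0791). *Psmc2* (ENSMUSG00000028932), a subunit of the ATPase ring, had 6 in each CTR library and 7 in each NPM1 KD library. *Psmd12* (ENSMUSG00000020720), a scaffold subunit of the lid, likewise had 6 throughout CTR and 7 throughout NPM1 KD, and both had the same adjusted p of 0.0791 from limma as *Psmb6*. For a single gene, an exact permutation of 3 libraries against 3 cannot give a two-sided p below 0.1.

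How far these steps exceed the rounding differed between the 3 genes. The authors' mean normalized count over all libraries was 224 for *Psmb6*, which is 7.80 on the log2 scale and lies 0.30 above the rounding limit of 7.5. If rlog values are read as the log2 of normalized counts, CTR libraries that round to 7 stay below a count of 181, and the mean of the NPM1 KD libraries must then exceed 266. For *Psmc2* and *Psmd12* the means were 91.7 and 91.2, or 6.52 and 6.51 on the log2 scale, only 0.018 and 0.010 above the limit of 6.5. A step of 1 at these 2 genes can therefore come from a difference close to 0 as well as from a larger one.

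The 100 bases before the annotated start are shown for the 3 members without overlap between the groups. They come from RefSeq (build GRCm38.p6, plus strand, 5′ to 3′). The libraries were aligned to GRCm39, and the coordinates below belong to the RefSeq table only. Capitals mark TGACNNNGC, the core of the antioxidant response element to which NFE2L1 and NFE2L2 bind, and the CCAAT box, both searched on either strand.
*Psmb6*, chr11:70525257-70525356: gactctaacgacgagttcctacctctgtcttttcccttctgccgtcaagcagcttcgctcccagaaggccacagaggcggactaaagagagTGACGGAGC
*Psmc2*, chr5:21785175-21785274: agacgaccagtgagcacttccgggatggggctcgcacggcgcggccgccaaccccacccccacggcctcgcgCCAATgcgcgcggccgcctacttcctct
*Psmd12*, chr11:107479428-107479527: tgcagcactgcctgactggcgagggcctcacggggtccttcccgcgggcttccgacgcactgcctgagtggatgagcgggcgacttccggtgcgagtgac
*Psmb6* holds the response element core directly before its start and *Psmc2* a CCAAT box, while the stretch of *Psmd12* holds neither set of letters. Farther out, at −247 bases from its start, *Psmd12* does hold TGACNNNGC. A promoter was matched for 45 of 53 members. In the window from 250 bases before to 50 after the start (300 bases), 7 of the 45 (15.6%) held TGACNNNGC, against 12.5% of 27025 promoters, and 16 (35.6%) held CCAAT, against 37.9%. Both shares were near those of promoters at large. Among members with a higher mean, 4 of 22 held TGACNNNGC and 9 of 22 CCAAT, and among members with an equal mean, 3 of 20 and 4 of 20. A match is a description of the letters and no evidence of binding.

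The core particle as a whole, with 16 members tested, had 10 higher, 0 lower and 6 equal means and a mean difference of 0.29. Of its alpha subunits, which gate the entrance to the barrel, 7 were tested and 4 had a higher mean. *Psma1* and *Psma5* shared a value of 7 in each CTR library and values of 8, 7 and 8 in NPM1 KD (difference 0.67, adjusted p = 0.33 from limma for each). *Psma4* was at 7 in CTR and at 8, 7 and 7 in NPM1 KD, and *Psma6* at 7, 8 and 8 in CTR and at 8 in each NPM1 KD library. *Psma2* had values of 7 and 8 in both groups with equal means, and *Psma3* and *Psma7* stood at 8 in all 6 libraries. The groups overlap in each of the 7 genes. *Psma8*, the testis form of an alpha subunit, was at 0 in every library.

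The entry *Psma5-ps*, a pseudogene outside the member rule, carried the same rlog value as *Psma5* in each of the 6 libraries, with an authors' mean of 174 against 168. How reads shared between such copies were counted is not stated, and the value of *Psma5* is uncertain to that extent. *Psme2* and its copy *Psme2b*, discussed further down, form a second such pair.

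Among the beta subunits 6 of 9 tested had a higher mean, 0 a lower one, and the class had a mean difference of 0.30. Besides *Psmb6*, the structural subunits *Psmb1* and *Psmb4* were at 8 in each CTR library and at 9, 8 and 8 in NPM1 KD. *Psmb3* was at 7, 8 and 8 in CTR and at 8 in each NPM1 KD library, and *Psmb2* at 7 in all 6. In *Psmb1* and *Psmb4* only NPM1 KD replicate 1 stood apart, and in *Psmb3* only CTR replicate 1.

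The catalytic sites exist in a constitutive and an immune form, the latter induced by interferon. *Psmb5*, the constitutive chymotrypsin-like subunit, was at 4, 5 and 5 in CTR and at 5 in each NPM1 KD library (difference 0.33, adjusted p = 0.713 from limma). Its immune counterpart *Psmb8* was at 4 in all 6 libraries. *Psmb7*, the constitutive trypsin-like subunit, was at 4, 3 and 4 in CTR and at 4, 4 and 3 in NPM1 KD, with equal means. Its immune counterpart *Psmb10* had 4, 5 and 5 in CTR and 5 in each NPM1 KD library. *Psmb9*, the immune counterpart of *Psmb6*, was too low to be tested, at 3 in each CTR library and at 2, 3 and 3 in NPM1 KD. Thus *Psmb6* was the one catalytic subunit whose groups were separate, and a difference between it and its counterpart was not tested. The authors' mean was 224 for *Psmb6*, against 27.8 for *Psmb5*, 12.1 for *Psmb7*, 14.9 for *Psmb8* and 26.2 for *Psmb10*. At such low means shrinkage and rounding may hide a difference. *Psmb11*, the thymus form, was at 0 throughout.

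The ATPase ring had a mean difference of 0.39, with 4 of 6 members higher and 0 lower. Differences between classes were not tested. After *Psmc2*, the nearest to a separation was *Psmc1*, at 6, 6 and 7 in CTR and at 7 in each NPM1 KD library (difference 0.67 with a standard error of 0.35, 3 libraries per group, limma adjusted p = 0.33). *Psmc5* was at 8, 8 and 9 in CTR and at 9, 8 and 9 in NPM1 KD. *Psmc3* was at 5, 6 and 6 in CTR and at 6 in each NPM1 KD library. *Psmc4* stood at 6 and *Psmc6* at 7 in all 6 libraries. In CTR the class averaged 6.33, 6.5 and 6.83, and in NPM1 KD 7, 6.83 and 7, so the highest CTR and the lowest NPM1 KD library were level.

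The non-ATPase class of the regulatory particle was formed by name from the *Psmd* genes and *Adrm1*. It also holds the assembly chaperones *Psmd5*, *Psmd9* and *Psmd10*. Of its 15 members, all of which were tested, 6 had a higher mean and 9 the same value in all 6 libraries. In CTR the class averaged 5.80, 5.80 and 5.87, and in NPM1 KD 6, 6.07 and 6.07, a mean difference of 0.22 with no overlap between the groups. Next to *Psmd12*, *Psmd14*, the deubiquitinase of the lid, was at 6 in CTR and at 7, 6 and 7 in NPM1 KD. *Psmd2*, the large scaffold that docks ubiquitin-like proteins, was at 6 in CTR and at 6, 7 and 7 in NPM1 KD (both differences 0.67, adjusted p = 0.33 from limma). *Psmd4*, a ubiquitin receptor, was at 6 in CTR and at 6, 7 and 6 in NPM1 KD. *Psmd1*, the second large scaffold, was at 5, 6 and 6 in CTR, and the ubiquitin receptor *Adrm1* at 6, 5 and 6, both with 6 in each NPM1 KD library. The lid subunits *Psmd3*, *Psmd6*, *Psmd7*, *Psmd8*, *Psmd11* and *Psmd13* had a single value each, as had *Psmd5*, *Psmd9* and *Psmd10*, which act as chaperones in the assembly of the regulatory particle.

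Among the alternative caps, *Psme3*, the nuclear activator, was at 5, 5 and 6 in CTR and at 6 in each NPM1 KD library (difference 0.67, unadjusted p = 0.0487, adjusted p = 0.33 from limma). The inhibitor *Psmf1* was at 4 in CTR and at 4, 5 and 4 in NPM1 KD. *Psme1*, the interferon-induced activator subunit, had a 3 in 1 library of either group and 4 in the others, and *Psme4* was at 5 in all 6. *Psme2*, the partner of *Psme1*, stood at 6 in all 6 libraries, as did *Psme2b*. The authors' means of *Psme2* and *Psme2b*, 71.7 and 72.0, were almost the same.

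Of the assembly factors, *Pomp*, the maturation factor of the core, was at 7 in CTR and at 8, 7 and 8 in NPM1 KD (difference 0.67, adjusted p = 0.33 from limma). The chaperone *Psmg3* followed the same order with 5 in CTR and 6, 5 and 6 in NPM1 KD (difference 0.67, unadjusted p = 0.0457, adjusted p = 0.33 from limma). *Psmg1*, *Psmg2* and *Psmg4* had a single value each. In all 5 assembly genes of the core NPM1 KD replicate 2 was level with CTR. The name rule also caught *Psme3ip1*, at 4 in all libraries, and *Psmc3ip*, below 1 in all libraries and not tested, which are partners of other proteins and no subunits.

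**Figure D3:**
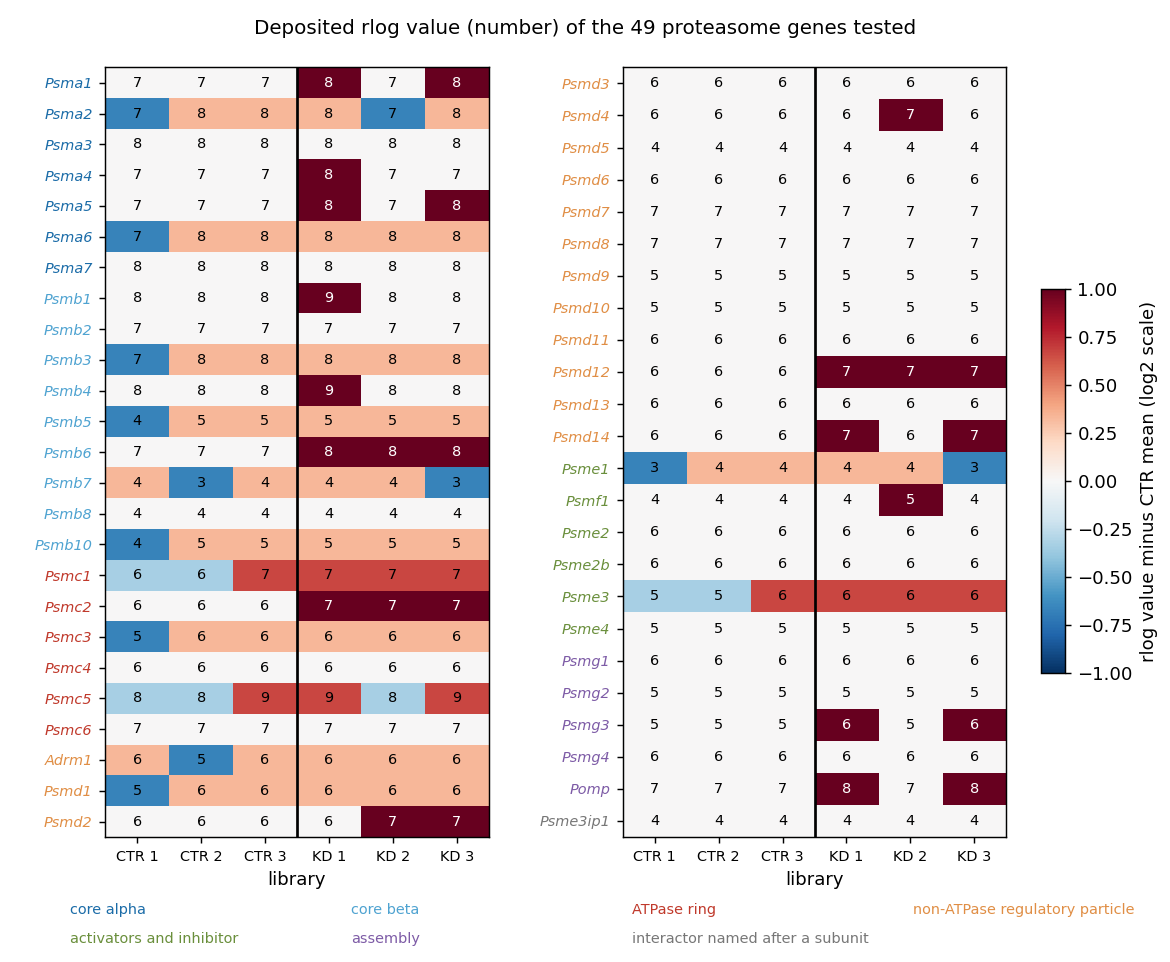
Deposited rlog value (printed number, log2 scale) of the 49 proteasome genes tested in the 3 CTR and 3 NPM1 KD libraries, coloured by the difference from the mean of the gene in CTR. Red cells lie mostly to the right of the black line, *Psmb6*, *Psmc2* and *Psmd12* are red in all NPM1 KD libraries, and 22 genes (44.9%) have a single value, against 40.2% of all genes.

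Differences in the members were made up of a few library patterns. Besides the 3 genes with a step of 1, the difference was 0.67 in 8 members and 0.33 in 13. CTR replicate 1 was the only lower CTR library in 8 of 49 members, or 16.3%, against 6.00% of all genes. NPM1 KD replicate 2 was the only lower NPM1 KD library in 7 members, or 14.3%, against 7.51% of all genes. Leaving out CTR replicate 1 gave 19 higher and 2 lower means among the members, and leaving out NPM1 KD replicate 2 gave 23 higher and 2 lower. For these counts the shares of all genes were not determined. Without NPM1 KD replicate 2, the number of members with all NPM1 KD values above CTR was 8 in place of 3 (16.3%, against 3.77% of all genes without that library). Without CTR replicate 3 it was 5 (10.2%, against 3.44% of all genes). *Psmb6*, *Psmc2* and *Psmd12* hold a single value per group, which fixes their difference at 1 in these fits, and their adjusted p from limma was 0.18 to 0.25 without 1 library.

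The rounded values and the authors' unrounded mean together limit the ratio between the groups, under the same reading of rlog values. With it the rounded values and the mean were compatible in 5752 of 5752 genes. Rounding leaves a wide band for each value, so this does not test whether the reading is exact. For *Psmb6* the mean normalized count in NPM1 KD then lay 0.56 to 1.98 higher than in CTR on the log2 scale. For *Psmb4* the range was 0.08 to 0.88, for *Psmc2* 0.037 to 1.61, for *Psmd12* 0.021 to 1.599 and for *Pomp* 0.003 to 1.59. These 5 members (10.2%) had a range above 0, against 3.74% of all genes, and 0 had a range below 0, against 5.01%. The other 44 ranges included 0. Members with a single value kept a wide range, from −0.44 to 0.44 for *Psmd11* up to −0.99 to 0.99 for *Psmc4*, so equal values do not show equal expression. Because rlog values are shrunk towards the mean of the gene, true ratios may lie outside the wide ends, and the ranges carry no error for the spread between libraries.

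**Figure D4:**
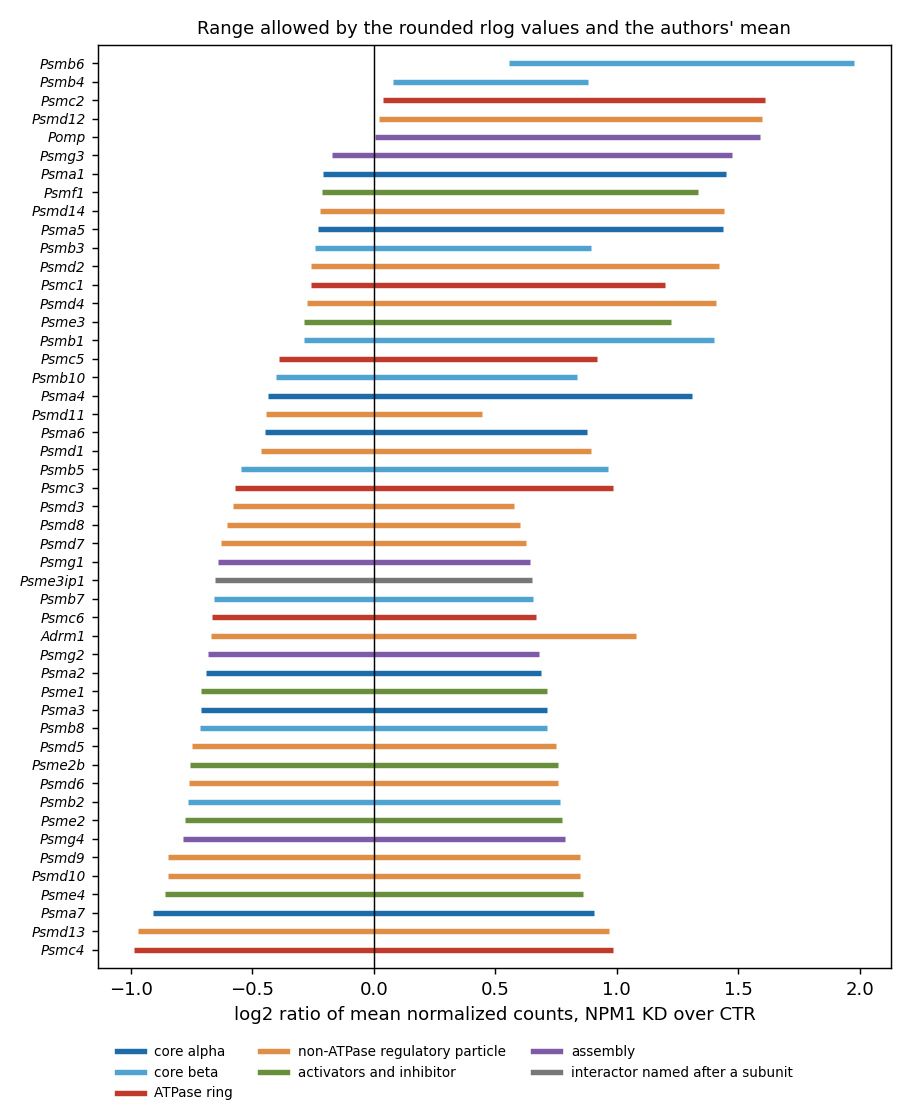
Range of the log2 ratio of mean normalized counts, NPM1 KD over CTR (x axis), that the rounded rlog values and the authors' mean allow for each of the 49 proteasome genes tested, coloured by class. The ranges of *Psmb6*, *Psmb4*, *Psmc2*, *Psmd12* and *Pomp* lie above 0, with *Psmb6* farthest (0.56 to 1.98), and the others include 0.

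Other genes of the ubiquitin and proteasome pathway were read from a list of 34, of which 33 were listed and 26 tested. Of these, 0 passed the threshold, 8 had a higher mean, 1 a lower mean (*Uchl5*, a proteasome-bound deubiquitinase) and 17 the same mean, with a mean difference of 0.17. The 8 and 1 of 26 stand against 24.6% higher and 27.4% lower means of all genes. *Nfe2l1*, the activator of proteasome genes, stood at 6 in all 6 libraries, and its relative *Nfe2l2* at 4. *Sem1*, a small lid subunit with a name outside the rule, was at 9 in all 6. In 3 of the 26 genes all NPM1 KD libraries stood above all CTR libraries and in 0 below, against 2.19% and 3.41% of all genes. *Sqstm1*, a receptor that carries ubiquitinated cargo to autophagy, was at 7 in each CTR and 8 in each NPM1 KD library. *Nploc4*, a cofactor of the segregase encoded by *Vcp*, was at 5 and 6, and *Zfand2a*, a stress-induced proteasome-binding protein, at 4 and 5 (difference 1 and adjusted p = 0.0791 from limma for each of the 3). *Vcp* itself was at 7 in CTR and at 8, 7 and 7 in NPM1 KD. Under the reading of rlog values above, the lowest log2 ratio allowed was 0.036 for *Zfand2a*, 0.078 for *Sqstm1* and 0.29 for *Nploc4*. The steps of *Zfand2a* and *Sqstm1* can therefore come from a difference close to 0. The ubiquitin genes *Ubb* and *Rps27a* stood at 10 and 12 in all libraries.

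Exons of 16 of the 53 members overlap another annotated gene in GENCODE M21, in most cases on the opposite strand. Among those described above these are *Psma4*, *Psma5*, *Psmb5*, *Psmb7*, *Psmb8*, *Psmb9*, *Psmc3*, *Psmd1*, *Psmd3*, *Psmd9*, *Psmd13*, *Psme1*, *Psme2b*, *Psmg3*, *Psmc3ip* and *Psme3ip1*. Whether strand was used in counting is not stated, so reads of these genes and of their neighbours may not be told apart. *Psmb6*, *Psmc2* and *Psmd12* overlap no other gene.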

How the data were processed

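Long-read cDNA libraries (Oxford Nanopore SQK-PCB109, GridION) of N2a cells were compared, 3 CTR against 3 NPM1 KD. The submitters' processing notes name minimap2, featureCounts, DESeq2 and the build GRCm39; the annotation, options and versions are not given in the sources used here. The authors deposited an rlog score for each gene and library. Values from 1 in size upwards are whole numbers, with decimal commas. They also deposited another table with the mean normalized count of each gene, used here as the authors' mean, and with the fold changes and p-values of their own comparison, which were not used. Of 26913 entries, 257 repeat a gene ID with the same values and were dropped, leaving 26656.

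The test used limma 3.58.1 under R 4.3.3, on genes whose rlog values averaged log2 of 10 or more (intensity trend, two-sided, Benjamini-Hochberg over 5752 genes, threshold 0.05). For genes with whole-number values, a residual variance, pooled over both groups, smaller than 0.0833 (that of a rounding error) was set to 0.0833. limma estimated infinite prior degrees of freedom, so that standard errors came wholly from the trend. The fit was tested on simulated rounded data, with changes larger than the difference of any member. That simulation does not show how often changes of the size seen in the members would be called. No total reads per library were available, and the rounding limits what a library can show. By the rule for named genes, values per library were given for members past the threshold or without overlap, the catalytic subunits and their immune counterparts, *Pomp* and *Adrm1*, and in the pathway list for *Nfe2l1*, *Nfe2l2*, *Sem1* and genes without overlap. Those of the other members, of *Vcp*, *Ubb* and *Rps27a* were added after seeing them. The members, lists and tests were chosen with earlier results of these data known; the range of ratios, the limit of 50 on the authors' mean and the fits without a copy were chosen after seeing the data. Alternatives were the variance limit, the trend, the filter, centring, a replicate block and leaving out each library.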

Additional observations from a re-analysis of the deposited data

How the results depend on the processing

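Over 12 alternative fits of all genes, the mean difference of the members stayed above 0, at 0.20 to 0.31 without 1 library, and *Npm1* stayed past the threshold with a difference of −2 to −1.98. Members with a higher mean numbered 19 to 27 without 1 library and those with a lower mean 0 to 3, and the shares of all genes in these fits were not determined. Without *Psme2b* and *Psme3ip1*, 24 of 47 were higher. With any mean rlog value above 0 admitted, *Psmb9* was lower and *Psmc3ip* lower by less than 0.1, the least difference counted here.

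Calls depended on how the rounding was treated. Without the lower limit on the variance, 123 of 5752 genes were higher and 178 lower, and without the trend 132 and 218. Either fit called 3 of 49 members (*Psmb6*, *Psmc2* and *Psmd12*) and 3 of 26 genes of the pathway list. Adjusted p-values for the 3 members were 3.58e-11 and 0.0304 from limma. As the rounded values of the 3 members do not vary within a group, these p-values measure no spread between libraries. With a mean rlog value above 0 admitted, 12 genes were higher and 42 lower. Without 1 library, 0 to 2 were higher and 5 to 9 lower, and 0 members and 0 pathway genes were called.

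Members at an unadjusted p below 0.05 numbered 3 without the limit (6.12%, against 5.65% of all genes in that fit), 11 without the trend (22.4% against 21.2%) and 11 with a mean above 0 (21.6% against 9.62%). They numbered 8 with a mean of at least log2 of 20 (18.6% against 16%), 11 with centred libraries (22.4% against 11.5%) and 3 to 8 without 1 library (6.12% to 16.3%, against 7.81% to 9.47%), beside 5 in the fit reported (10.2% against 14.1%), and 6 further members had an unadjusted p of 0.053 to 0.0545 from limma in the fit reported. Members without overlap numbered 3 to 8 without 1 library (6.12% to 16.3%, against 2.96% to 3.77% of all genes). Pathway genes with a higher mean numbered 5 to 9 and those with a lower mean 1 to 2 without 1 library. The matching shares of all genes were not determined. TGACNNNGC was found in 6.67% of members, against 6.82% of all promoters, in the 150 bases before the start.

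Deviations of replicates of the same number had correlations of 0.0013 to 0.030 over 5752 genes, against −0.036 to 0.025 for the other pairs. Rounding to whole numbers can hide a shared deviation, so these values cannot tell whether such replicates were handled together. With the replicate block, 1 gene was higher and 7 lower, 0 members were called and 3 had an unadjusted p below 0.05 (6.12%, against 6.14% of all genes). Depth per library is unknown, and rounding hides differences below 1. A pseudocount was not varied, as the deposited values are already on the log2 scale.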
